A study of Mus musculus with 8 samples.

Results

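The immediate early and heat shock genes are a set of 35 stress and stimulus response genes, chosen by name and found by symbol among the 54418 Ensembl identifiers of the count table. There are 24 immediate early genes and 11 heat shock genes, each with 1 identifier, and all 35 passed the filter on low counts that kept 16011 genes. They were measured in RNA of melanocyte stem cells, the pigment cell reserve of the hair follicle, sorted from dorsal skin of mice on a mixed C57Bl-6 and 129Sv background at postnatal day 21. There were 4 Bmi1-deleted libraries, from mice with floxed Bmi1 alleles, Tyrosinase-Cre, Dct-rtTA and TRE-H2B-GFP, and 4 control libraries, from mice with the same alleles but no Cre. Every mouse was fed doxycycline, so all libraries share the reporter, a histone-GFP induced through the promoter of Dct, a melanin synthesis gene. Cre was driven by the promoter of tyrosinase, a gene of the pigment lineage, so other cells in the sort need not be deleted. Skin was digested with collagenase and then trypsin while shaking warm, and live, non-autofluorescent GFP-positive cells were sorted. No label gives the time to lysis of each sample, a batch, a litter or whether replicates came from separate animals, and p-values therefore speak of the variation among these libraries, which may in part be technical.

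Immediate early genes are transcribed within minutes of a stimulus without new protein synthesis, through factors such as SRF, the ternary complex factors and CREB that already sit in the cell. Many encode transcription factors, above all the Fos and Jun proteins, which pair to form AP-1, and others encode brakes that end the response. Heat shock genes encode chaperones that refold or hold proteins. Part of them are made at all times, and part are induced by HSF1 when proteins unfold. Warm enzymatic digestion of tissue is known to raise both classes in freshly isolated cells, so their level in a sorted sample is a record of the tissue and of its handling together.

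Library totals ranged from 9076517 to 10368174 estimated counts in the Bmi1-deleted libraries and from 8882656 to 9466711 in the control libraries. Levels are counts per 1e+06 scaled by TMM (CPM), and SDs are over 4 libraries. Bmi1 itself stood at 69.2, 70.8, 69.6 and 68.8 CPM in Bmi1-deleted libraries 1 to 4, against 84.6, 76.5, 75.4 and 97.2 CPM in control libraries 1 to 4 (log2 change −0.26, SE 0.12, edgeR adjusted p = 0.607). The groups did not overlap, and the adjusted p stayed above the threshold. In the deposited TPM, given with no test, Bmi1 stood at 14.3, 19.5, 11.7 and 8.0 in Bmi1-deleted libraries, against 36.4, 35.0, 24.2 and 26.1 in control libraries, again without overlap. These TPM include Gm23935 and CT010467.1, which together held between 74% and 85.9% of the total. On this scale all genes had a median log2 change of −0.14, and 28.3% of them were positive. The labels do not say which exons the floxed allele removes. All 10 melanocyte markers were tested and present in every library, with a summed level of 5250 to 10700 CPM in Bmi1-deleted and 9250 to 15300 CPM in control libraries.

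The stretches just before the start of these genes carry short letters that known activators of each class bind. RefSeq promoter windows (build GRCm38.p6) matched 27 of the 35 members, 19 immediate early and 8 heat shock genes, and the 250 bases before the start were searched on both strands. The paired heat shock unit, GAANNTTC or TTCNNGAA, was in a window of 7 of the 8 heat shock genes and of 2 of the 19 immediate early genes, Jun and Fosl2. Over the whole table it was in 14.5% of 27025 genes with a window. The tripled unit, in which a further inverted GAA or TTC follows the pair after NN, so that it contains the pair, was in 2 of the 8, Hspe1 and Hspd1, and in 0.514% of all genes. The core of the CREB element, TGACG, was in 11 of the 19 immediate early genes and in 4 of the 8 heat shock genes, against 19.8% of all genes. The CArG box, the site of SRF, was in 1 of the 19, Zfp36, against 1.62% of all genes. Sites more than 250 bases before the start were not searched. No window was found for Egr1, Egr3, Fosl1, Ier2, Myc, Hspa8, Hsp90aa1 and Hsp90ab1, so these counts do not cover them. A match is a description of these letters alone. The windows of Hspe1 and Hspd1 overlap, and those of Hspa1a and Hspa1b are 98.8% identical. The 7 heat shock genes with the pair are therefore not 7 independent stretches.

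The 5 immediate early promoters printed here are those of Fos and Fosb of AP-1 and the phosphatase gene Dusp1, which varied widely between libraries and passed in no fit, of the receptor gene Nr4a2, and of Ier5, which passed in some fits. TGACG and its reverse complement are in capitals. They lie at chr12:85473640-85473889 (plus strand), chr7:19310046-19310295 (minus strand), chr17:26508473-26508722 (minus strand), chr2:57124004-57124253 (minus strand) and chr1:155099637-155099886 (minus strand), and end at the base before the start.
Fos: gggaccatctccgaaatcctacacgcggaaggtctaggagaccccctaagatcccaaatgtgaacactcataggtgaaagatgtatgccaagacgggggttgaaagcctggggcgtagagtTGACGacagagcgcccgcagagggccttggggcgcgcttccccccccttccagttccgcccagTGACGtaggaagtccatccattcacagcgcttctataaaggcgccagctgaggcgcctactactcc
Fosb: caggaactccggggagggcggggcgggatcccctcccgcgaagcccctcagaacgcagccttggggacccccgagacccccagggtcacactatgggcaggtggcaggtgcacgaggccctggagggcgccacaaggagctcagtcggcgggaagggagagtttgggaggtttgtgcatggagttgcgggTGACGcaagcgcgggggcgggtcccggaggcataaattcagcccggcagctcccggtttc
Dusp1: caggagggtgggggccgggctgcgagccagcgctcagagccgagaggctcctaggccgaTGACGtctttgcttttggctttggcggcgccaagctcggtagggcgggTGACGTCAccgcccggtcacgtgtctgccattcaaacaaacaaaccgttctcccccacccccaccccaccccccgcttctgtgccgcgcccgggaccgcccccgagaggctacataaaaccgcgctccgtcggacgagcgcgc
Nr4a2: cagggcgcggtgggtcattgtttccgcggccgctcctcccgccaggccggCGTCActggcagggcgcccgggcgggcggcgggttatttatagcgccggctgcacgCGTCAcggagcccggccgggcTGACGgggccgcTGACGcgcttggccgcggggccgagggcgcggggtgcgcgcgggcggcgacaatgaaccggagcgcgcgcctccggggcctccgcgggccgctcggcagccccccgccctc
Ier5: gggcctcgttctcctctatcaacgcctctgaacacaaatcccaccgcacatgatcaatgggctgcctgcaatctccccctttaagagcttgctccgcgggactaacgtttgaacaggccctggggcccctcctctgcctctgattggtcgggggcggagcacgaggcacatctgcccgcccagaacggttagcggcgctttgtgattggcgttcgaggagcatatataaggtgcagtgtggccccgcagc
Fos held 2 cores, Fosb 1, Dusp1 3, Nr4a2 4 and Ier5 0. In Dusp1 a pair of overlapping cores on opposite strands made up the whole CREB element, TGACGTCA, which was in 1.77% of all genes.

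The heat shock promoters printed here are those of Hspa1a and Hspa1b, the inducible Hsp70 genes, which moved together across libraries, and of Hspe1, whose window also covers 1 of the 2 divergent starts that RefSeq gives for Hspd1. The window of the other start held no unit. Capitals mark the paired heat shock unit. The windows are chr17:34972157-34972406 (minus strand), chr17:34959239-34959488 (minus strand) and chr1:55087898-55088147 (plus strand).
Hspa1a: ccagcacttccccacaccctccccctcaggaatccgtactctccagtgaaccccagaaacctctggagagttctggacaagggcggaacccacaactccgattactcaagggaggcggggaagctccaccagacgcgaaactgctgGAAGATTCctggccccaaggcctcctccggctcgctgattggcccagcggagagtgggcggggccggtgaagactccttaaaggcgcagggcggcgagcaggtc
Hspa1b: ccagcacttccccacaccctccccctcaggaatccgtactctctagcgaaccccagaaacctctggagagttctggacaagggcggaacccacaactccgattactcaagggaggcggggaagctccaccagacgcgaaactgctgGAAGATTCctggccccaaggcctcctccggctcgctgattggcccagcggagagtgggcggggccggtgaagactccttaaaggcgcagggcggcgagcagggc
Hspe1: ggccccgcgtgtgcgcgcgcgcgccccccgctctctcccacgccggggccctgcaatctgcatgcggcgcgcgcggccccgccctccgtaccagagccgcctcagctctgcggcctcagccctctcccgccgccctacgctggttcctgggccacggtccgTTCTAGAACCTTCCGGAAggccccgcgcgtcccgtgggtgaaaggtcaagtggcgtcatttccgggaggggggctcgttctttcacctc
The windows of Hspa1a and Hspa1b differed at 3 of 250 bases (98.8% identical), with the same unit 104 to 97 bases before the start. In Hspe1, 3 overlapping units ran from 89 to 72 bases before the start.

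Both classes were expressed at high levels in every library of both genotypes. To compare levels between genes, the deposited TPM (transcripts per 1e+06, a level per length) were rescaled to 1e+06 without Gm23935 and CT010467.1, which GENCODE annotates as a miRNA and a ribosomal RNA and which together held between 74% and 85.9% of the deposited total. On this scale Fos was the highest member, at 3360 ± 1140 TPM in Bmi1-deleted and 2580 ± 769 TPM in control libraries, and ranked 7 among 21802 protein-coding genes by its mean over all 8. Hspa8, the constitutive Hsp70, followed at 1870 ± 268 TPM in Bmi1-deleted and 2040 ± 459 TPM in control libraries (rank 20), and Hsp90ab1, the constitutive cytosolic Hsp90, at 2000 ± 271 TPM in Bmi1-deleted and 1840 ± 460 TPM in control libraries (rank 21). Hspa8 and Hsp90ab1 did not differ beyond their spread, and Fos was below both in control library 4. Hsp90aa1, Atf3 and Fosb came next, with means over all libraries of 1310, 1180 and 1090 TPM. The inducible Hspa1a and Hspa1b stood lower, at 413 and 437 TPM, and the lowest members were Klf2 at 54 TPM and Fosl1 at 74.3 TPM. As a share of all estimated counts, the 24 immediate early genes took 1.09% to 1.80% of Bmi1-deleted and 0.844% to 1.44% of control libraries, and the 11 heat shock genes 0.740% to 0.930% of Bmi1-deleted and 0.637% to 1.07% of control libraries.

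Comparing genotypes, no immediate early gene passed the test at an adjusted p under 0.05 (edgeR quasi-likelihood, Benjamini-Hochberg over all genes), against 0.0937% of all 16011 genes (0.0874% higher and 0.00625% lower). All 24 had a fitted log2 change of 0 or above, as did 50.7% of all genes, and the median was 0.28 against 0.01 for all genes. Unadjusted p was under 0.05 for 4 of the 24, Ier5, Nr4a2, Ier2 and Klf4, against 8.27% of all genes. With DESeq2 1 passed, Ier5, and the share of all genes passing in that fit is not given. With the replicate number as a block 2 of the 24 passed, Egr3 and Ier5, both higher in Bmi1-deleted libraries, against 2.41% of all genes (1.71% higher and 0.706% lower). The median was 0.12 without Bmi1-deleted library 2, with 19 of the 24 positive, and 0.12 without control library 4, with 20 positive. With the level of fibroblast markers as a covariate the direction turned, with 9 of the 24 positive and a median of −0.15. Of all genes 48.7% were positive in that fit. The fibroblast markers themselves summed to 7640 to 17300 CPM in Bmi1-deleted and 4660 to 7930 CPM in control libraries. On the deposited log2 TPM 13 of the 24 were positive, against 28.3% of all genes. The median in that fit was 0.02 against −0.14 for all genes. In bulk RNA, more cells of a kind and more RNA per cell cannot be told apart.

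**Figure D1:**
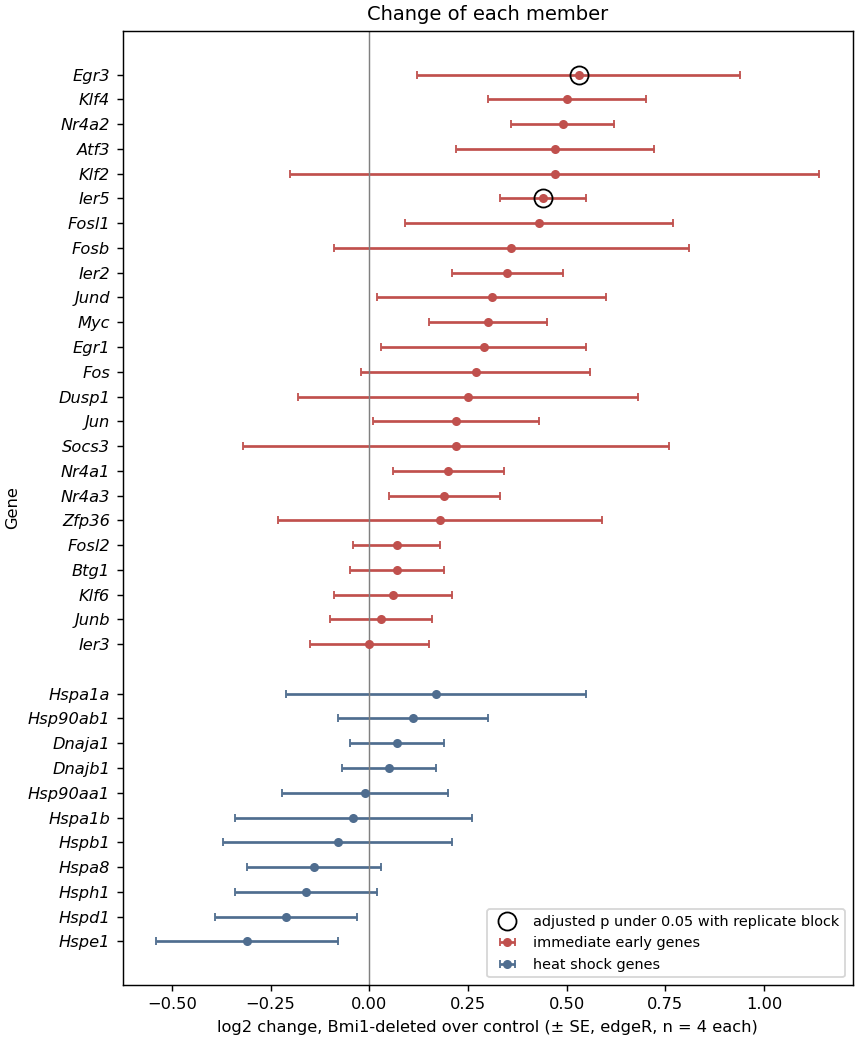
Log2 change of each member, Bmi1-deleted over control (x axis; points are edgeR estimates, bars ± SE, n = 4 each), immediate early genes above and heat shock genes below. The early genes lie between 0.00 and 0.53 and the heat shock genes between −0.31 and 0.17, and circles mark Egr3 and Ier5, which passed with the replicate block.

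None of the 7 Fos and Jun family genes passed, and the libraries of the genotypes overlapped for each. Fos (ENSMUSG00000021250, mm10 chromosome 12, 85473890 to 85477273), the short-lived partner of Jun, stood at 2139, 2721, 1348 and 1284 CPM in Bmi1-deleted libraries 1 to 4, against 1896, 1941, 1449 and 937 CPM in control libraries 1 to 4 (log2 change 0.27, SE 0.29, adjusted p = 0.901). The groups overlapped, and in each genotype libraries 1 and 2 were the highest. Fosb, a close relative of Fos, had 1610.1, 2076, 717 and 816 CPM in Bmi1-deleted libraries and 1470.0, 1253, 843 and 502 CPM in control libraries (log2 change 0.36, SE 0.45, adjusted p = 0.915). Libraries 1 and 2 were again the highest in each genotype, and control library 4 was the lowest. Jun (ENSMUSG00000052684), the founding member of the Jun family, was at 1428, 1775, 959 and 979 CPM in Bmi1-deleted and 1375, 1196, 999.6 and 846 CPM in control libraries (log2 change 0.22, SE 0.21, adjusted p = 0.88). Again both libraries 1 and 2 exceeded 3 and 4. Junb, a Jun protein that often opposes Jun, stayed within a narrow range, 643, 617, 508 and 483 CPM in Bmi1-deleted and 609, 523, 572 and 495 CPM in control libraries (log2 change 0.03, SE 0.13, adjusted p = 0.981). Fosl2 was steadier still, between 650.5 and 717 CPM in Bmi1-deleted and between 606 and 679.8 CPM in control libraries (log2 change 0.07, adjusted p = 0.93). Jund stood at 408 ± 156 CPM in Bmi1-deleted and 329 ± 93.4 CPM in control libraries (adjusted p = 0.872) and Fosl1 at 75.7 ± 38.7 CPM in Bmi1-deleted and 56 ± 13.6 CPM in control libraries (adjusted p = 0.837). Ccdc85b, on the other strand, covers 59.5% of the 31-base words of Fosl1 transcripts and Gm11175 covers 50.1% of those of Jund. Whether counting was by strand is not stated, so reads of these neighbours may not be parted.

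Among the zinc finger factors of the EGR family, Egr1, which SRF switches on directly, had 1829, 2165, 1361 and 1260.5 CPM in Bmi1-deleted libraries 1 to 4, against 1622, 1674, 1364 and 739 CPM in control libraries 1 to 4 (log2 change 0.29, SE 0.26, adjusted p = 0.861). Control library 4 was far below the other 7, which overlapped. Egr3, a relative of Egr1, had 551, 592, 305 and 279.6 CPM in Bmi1-deleted and 378, 433, 259 and 130.2 CPM in control libraries (log2 change 0.53, SE 0.41, adjusted p = 0.837). Each Bmi1-deleted library was above the control library of the same number, although the groups overlapped. With the replicate block the log2 change was 0.58 and the adjusted p 0.0207. Left out in turn with the block, the pairs gave adjusted p from 0.0176, without pair 3, to 0.112, without pair 4, and Egr3 passed only without pair 3. Atf3, a stress-induced repressor that can dimerise with Jun, had 877, 948, 454 and 538 CPM in Bmi1-deleted and 651, 536, 477 and 363 CPM in control libraries (log2 change 0.47, SE 0.25, adjusted p = 0.688).

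The orphan nuclear receptors of the NR4A family act as ligand-independent early factors, and in melanocytes they are known as targets of the MC1R and cyclic AMP pathway. Nr4a2 (ENSMUSG00000026826, mm10 chromosome 2, 57106830 to 57124003) had 378, 477, 440.1 and 551 CPM in Bmi1-deleted libraries 1 to 4, against 363, 350.2, 316 and 289 CPM in control libraries 1 to 4 (log2 change 0.49, SE 0.13, adjusted p = 0.275). In CPM every Bmi1-deleted library was above every control library. In the rescaled TPM the groups overlapped. Nr4a2 stood there at 432.4, 520.7, 645.4 and 503.4 TPM in Bmi1-deleted and 479, 376.8, 269.5 and 315.2 TPM in control libraries. With the replicate block the adjusted p was 0.0541. Nr4a1 had 1016, 1144, 946 and 1003 CPM in Bmi1-deleted and 1057, 893, 947 and 679.6 CPM in control libraries (log2 change 0.20, SE 0.14, adjusted p = 0.806), with control library 4 the lowest. Nr4a3 stood at 398 ± 53.8 CPM in Bmi1-deleted and 349 ± 56.8 CPM in control libraries (log2 change 0.19, adjusted p = 0.81). In CPM the highest library for Nr4a2 and Nr4a3 was Bmi1-deleted 4, and in the rescaled TPM that of Nr4a2 was Bmi1-deleted 3. Fos, Fosb, Jun, Egr1 and Egr3 were highest in Bmi1-deleted 2.

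The IER genes are named for their early induction, and 2 of the 3 had groups that did not overlap. Ier5 (ENSMUSG00000056708, mm10 chromosome 1, 155096361 to 155099636), which is known to aid activation of HSF1, had 189.8, 205, 174 and 174 CPM in Bmi1-deleted libraries 1 to 4, against 145, 139, 138 and 126 CPM in control libraries 1 to 4 (log2 change 0.44, SE 0.11, adjusted p = 0.195). The lowest Bmi1-deleted library was above the highest control library. With the replicate block Ier5 passed (log2 change 0.44, adjusted p = 0.0277), but with the block and any 1 pair left out it did not (adjusted p from 0.0667 to 0.193). Ier2 had 131, 169, 123 and 125 CPM in Bmi1-deleted and 113, 110.4, 117 and 90.5 CPM in control libraries (log2 change 0.35, SE 0.14, adjusted p = 0.514), and these groups did not overlap either. Ier3, a regulator of cell survival, stood at 72.7 ± 12.8 CPM in Bmi1-deleted and 72.5 ± 8.47 CPM in control libraries (log2 change 0.00, adjusted p = 0.995). In CPM, Ier2, Ier5 and Nr4a2 were the 3 of 24 early genes whose groups did not overlap. All were higher in Bmi1-deleted libraries, as were 2.79% of all genes.

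Genes that end the early response varied widely among libraries of 1 genotype, apart from Btg1. Dusp1, a phosphatase that switches MAP kinases off, had 311, 332, 152 and 118 CPM in Bmi1-deleted libraries 1 to 4, against 255, 257, 157 and 101 CPM in control libraries 1 to 4 (log2 change 0.25, SE 0.43, adjusted p = 0.946). In both genotypes libraries 1 and 2 were the high ones. Zfp36, which destroys messages with AU-rich elements, had 579, 582, 269 and 237 CPM in Bmi1-deleted and 436, 539.6, 287 and 206 CPM in control libraries (log2 change 0.18, SE 0.41, adjusted p = 0.963). Socs3, the feedback inhibitor of cytokine signalling through STAT3, had 635, 711, 240.3 and 232 CPM in Bmi1-deleted and 531, 572, 278 and 179 CPM in control libraries (log2 change 0.22, SE 0.54, adjusted p = 0.967). Both genes repeated the order of Dusp1, with libraries 1 and 2 high in each genotype. Btg1, an antiproliferative gene, hardly varied, between 282 and 307 CPM in Bmi1-deleted and between 236 and 325 CPM in control libraries (log2 change 0.07, adjusted p = 0.94).

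Of the Krüppel-like factors, Klf2, best known from endothelium and lymphocytes, was the most variable member, with 82.6, 107, 35.2 and 30.9 CPM in Bmi1-deleted libraries 1 to 4, against 85.4, 61.4, 15.7 and 21.4 CPM in control libraries 1 to 4 (log2 change 0.47, SE 0.67, adjusted p = 0.928). Its highest library, Bmi1-deleted 2, was 6.78-fold above its lowest, control 3. Klf4, a barrier and reprogramming factor of skin, had 592, 865, 447 and 555 CPM in Bmi1-deleted and 551, 401, 458 and 328 CPM in control libraries (log2 change 0.50, SE 0.20, adjusted p = 0.553). Klf6, a broadly expressed relative, had 719, 733, 533 and 584 CPM in Bmi1-deleted and 722, 663, 569 and 509.8 CPM in control libraries (log2 change 0.06, SE 0.15, adjusted p = 0.966). The groups of both overlapped. Myc, the growth regulator, had 316, 279, 204 and 242 CPM in Bmi1-deleted and 244, 211, 207 and 182 CPM in control libraries (log2 change 0.30, SE 0.15, adjusted p = 0.62), with Bmi1-deleted libraries 3 and 4 within the control range.

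**Figure D2:**
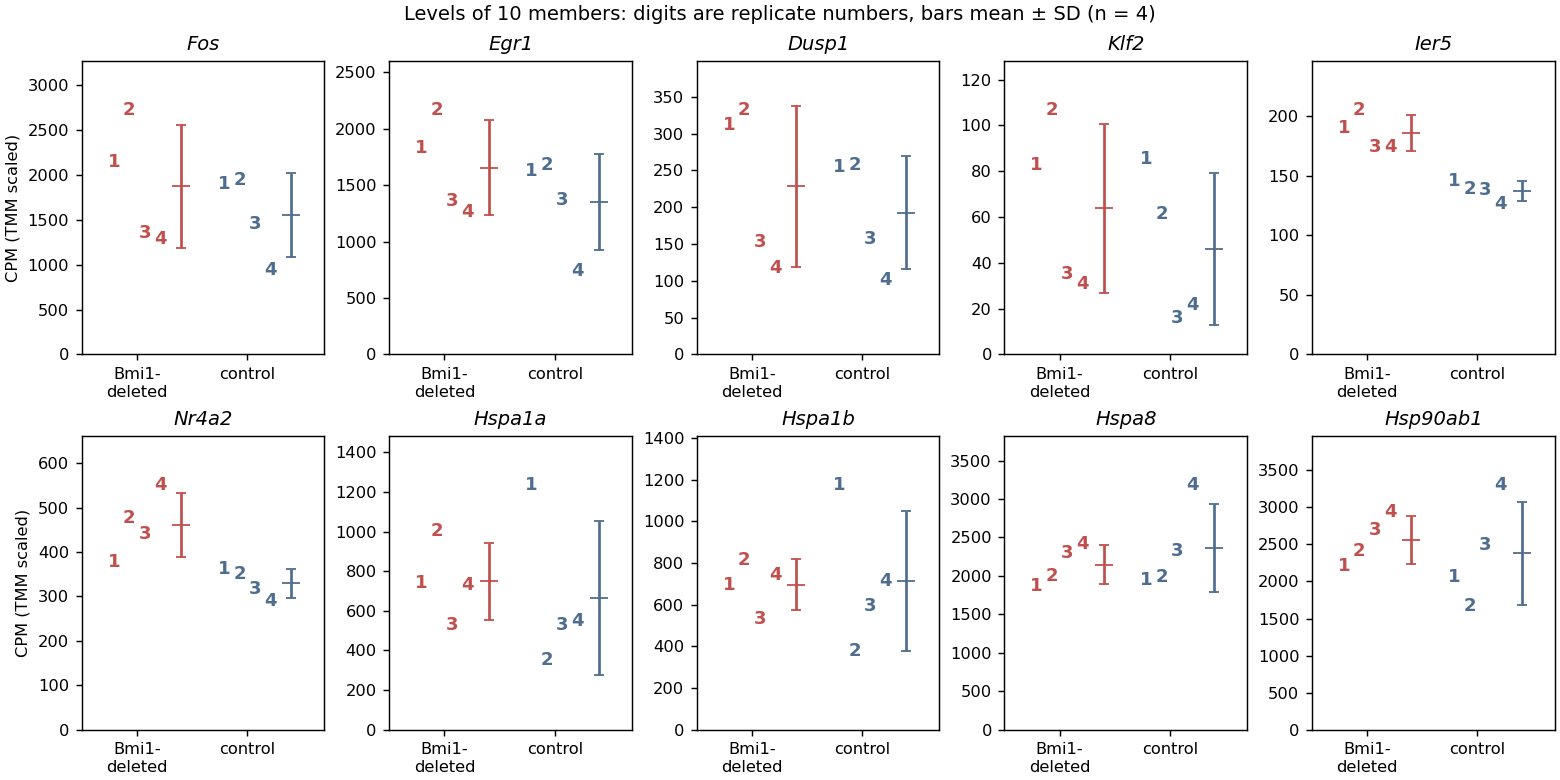
Levels of 10 members in CPM (y axis, linear, from 0), Bmi1-deleted left of control, with digits for the replicate number and bars for the mean ± SD (n = 4). For Fos, Egr1, Dusp1 and Klf2 replicates 1 and 2 of both genotypes sit above 3 and 4, for Hspa8 and Hsp90ab1 below, and for Ier5 and Nr4a2 every Bmi1-deleted value sits above every control value.

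The heat shock genes showed no common shift between genotypes. Of the 11, 0 passed in the edgeR test, 0 had an unadjusted p under 0.05, and 0 passed with DESeq2 or with the replicate block. The fitted log2 change was positive for 4 and negative for 7, with a median of −0.04 against 0.01 for all genes, and none of the 11 had groups that did not overlap, against 2.79% (higher) and 2.39% (lower) of all genes.

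The inducible Hsp70 genes had the widest range between libraries of the 11 heat shock genes. Hspa1a (ENSMUSG00000091971, mm10 chromosome 17, 34969190 to 34972156) had 739.7, 1001, 527 and 728 CPM in Bmi1-deleted libraries 1 to 4, against 1235, 349, 529 and 551 CPM in control libraries 1 to 4 (log2 change 0.17, SE 0.38, adjusted p = 0.963). Its neighbour Hspa1b (ENSMUSG00000090877, chromosome 17, 34956436 to 34959238) had 694, 816, 533 and 743 CPM in Bmi1-deleted and 1174, 376, 596 and 712 CPM in control libraries (log2 change −0.04, SE 0.30, adjusted p = 0.989). For both genes control library 1 was the highest and control library 2 the lowest of all 8, 3.54-fold apart for Hspa1a and 3.12-fold for Hspa1b. Hspa1b holds 63.8% of the 31-base words of Hspa1a transcripts, so reads are shared out between these near-identical genes with uncertainty, and their agreement is not independent. Hspa8 had 1872, 1996, 2296 and 2418 CPM in Bmi1-deleted and 1950.1, 1990.5, 2322.3 and 3181 CPM in control libraries (log2 change −0.14, SE 0.17, adjusted p = 0.911). Its values were higher in libraries 3 and 4 of both genotypes, and control library 4 was the highest.

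The cytosolic Hsp90 genes, whose products mature kinases and steroid receptors, followed Hspa8. Hsp90aa1, the inducible form, had 1029, 1027, 1363 and 1647 CPM in Bmi1-deleted libraries 1 to 4, against 1096, 883, 1375 and 1732 CPM in control libraries 1 to 4 (log2 change −0.01, SE 0.21, adjusted p = 0.996). Hsp90ab1 had 2210.0, 2405, 2696 and 2936 CPM in Bmi1-deleted and 2059, 1667, 2487 and 3303 CPM in control libraries (log2 change 0.11, SE 0.19, adjusted p = 0.945). Libraries 3 and 4 were above libraries 1 and 2 within and across genotypes for both. Hsph1, an Hsp110 that exchanges the nucleotide of Hsp70, had 189, 191, 208 and 221 CPM in Bmi1-deleted and 217, 160.1, 199 and 330.0 CPM in control libraries (log2 change −0.16, SE 0.18, adjusted p = 0.907), with control library 4 alone above 221 CPM. The J-proteins, which bring clients to Hsp70, were steady. Dnajb1, an HSF1 target, had 124, 152, 126 and 146 CPM in Bmi1-deleted and 146, 114, 138 and 132 CPM in control libraries (log2 change 0.05, SE 0.12, adjusted p = 0.97), and Dnaja1 stood at 487 ± 48 CPM in Bmi1-deleted and 464 ± 34.7 CPM in control libraries (log2 change 0.07, adjusted p = 0.942).

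Hspb1, a small heat shock protein that holds unfolded clients, had 39.8, 47.2, 20.5 and 27.2 CPM in Bmi1-deleted libraries 1 to 4, against 28.7, 54.4, 26.1 and 32.8 CPM in control libraries 1 to 4 (log2 change −0.08, SE 0.29, adjusted p = 0.981). The groups overlapped, with control library 2 the highest and Bmi1-deleted library 3 the lowest. Hspe1 and Hspd1 encode the chaperonin pair of the mitochondrial matrix and start from a shared stretch of DNA. Hspe1 had 34.3, 34.8, 26.8 and 46.3 CPM in Bmi1-deleted and 56.6, 34.9, 30.0 and 55.3 CPM in control libraries (log2 change −0.31, SE 0.23, adjusted p = 0.809). Hspd1 had 131, 116, 141 and 154 CPM in Bmi1-deleted and 111, 163, 135 and 218 CPM in control libraries (log2 change −0.21, SE 0.18, adjusted p = 0.859). The library orders of the pair differed, since control 1 was the highest for Hspe1 and the lowest for Hspd1. Many heat shock genes have processed pseudogenes, and other genes on the same strand hold 71.6% of the 31-base words of Hspa8 transcripts, 54.0% of Hsp90aa1, 52.3% of Hspb1, 50.1% of Hspd1 and 48.1% of Hspe1, against 15.5% of Hsp90ab1 and 0% of Hsph1. Their counts therefore depend more on how the authors' software shared out reads than those of Fos, Egr1 or Dusp1, each at 0%.

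**Figure D3:**
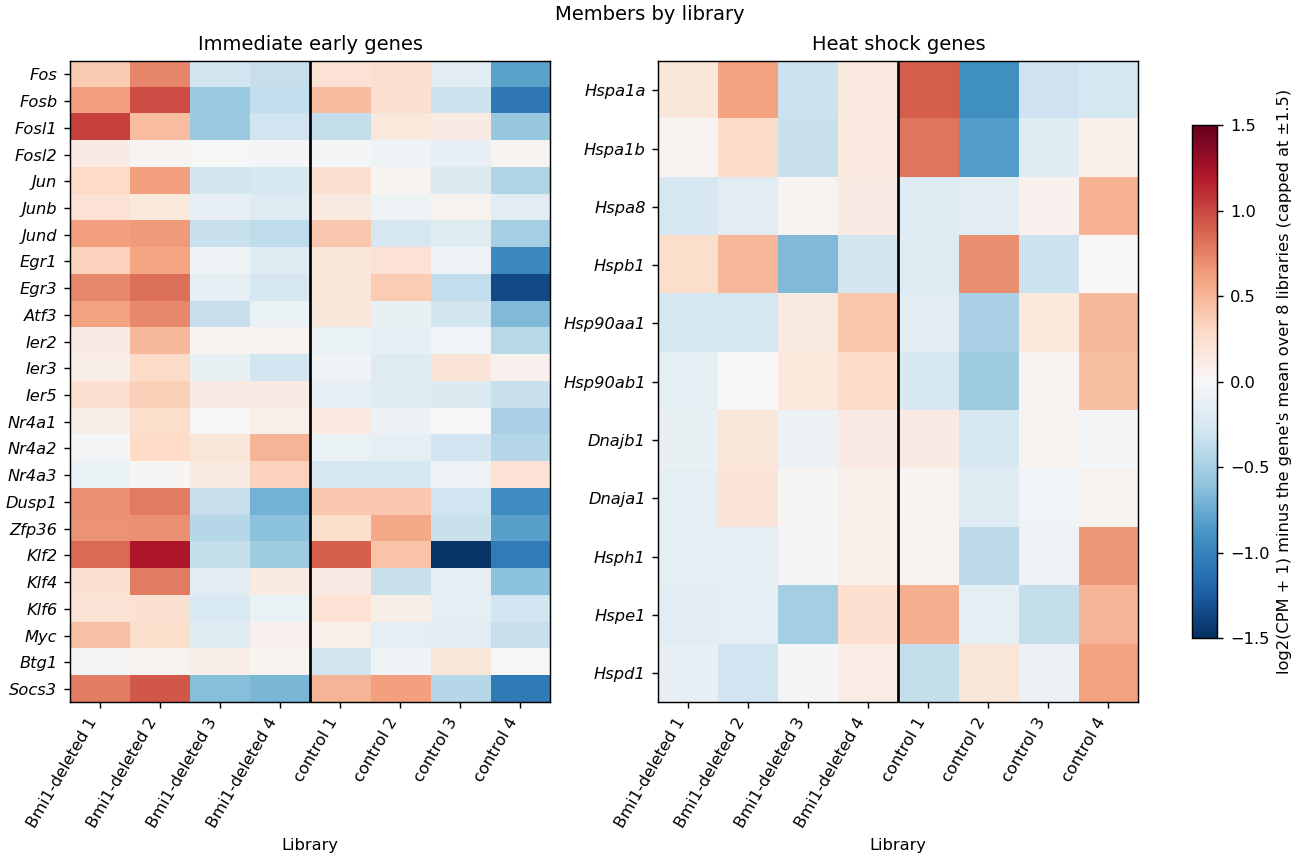
Level of each member in each library as log2(CPM + 1) minus the gene's mean over 8 libraries (colour, capped at ±1.5), Bmi1-deleted libraries left of the line and control libraries right, immediate early genes in the left panel and heat shock genes in the right. Bmi1-deleted library 2 is the highest for 17 of 24 early genes and control library 4 the lowest for 18, while control library 4 is the highest for 5 of 11 heat shock genes.

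The spread between libraries of 1 genotype was large for both classes given their level. The pooled within-genotype SD of log2(CPM + 1) had a median of 0.366 over the 24 early genes and 0.322 over the 11 heat shock genes, against 0.37 over all tested genes, most of which are far lower and so noisier. Among the 2075 genes with a mean of at least 100 CPM the median was 0.182. Of the 21 early genes at that level 17 exceeded it, with a median of 0.358, and 9 lay in the top 10%. Of the 9 heat shock genes at that level 7 exceeded it, with a median of 0.317, and 2 lay in the top 10%, Hspa1a (0.601) and Hspa1b (0.514). The members differed in this. The 5 with the largest SD were Klf2 (1.01), Socs3 (0.835), Fosb (0.718), Dusp1 (0.695) and Egr3 (0.676), and the 4 with the smallest were Fosl2 (0.0668), Ier5 (0.0999), Dnaja1 (0.128) and Btg1 (0.139).

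**Figure D4:**
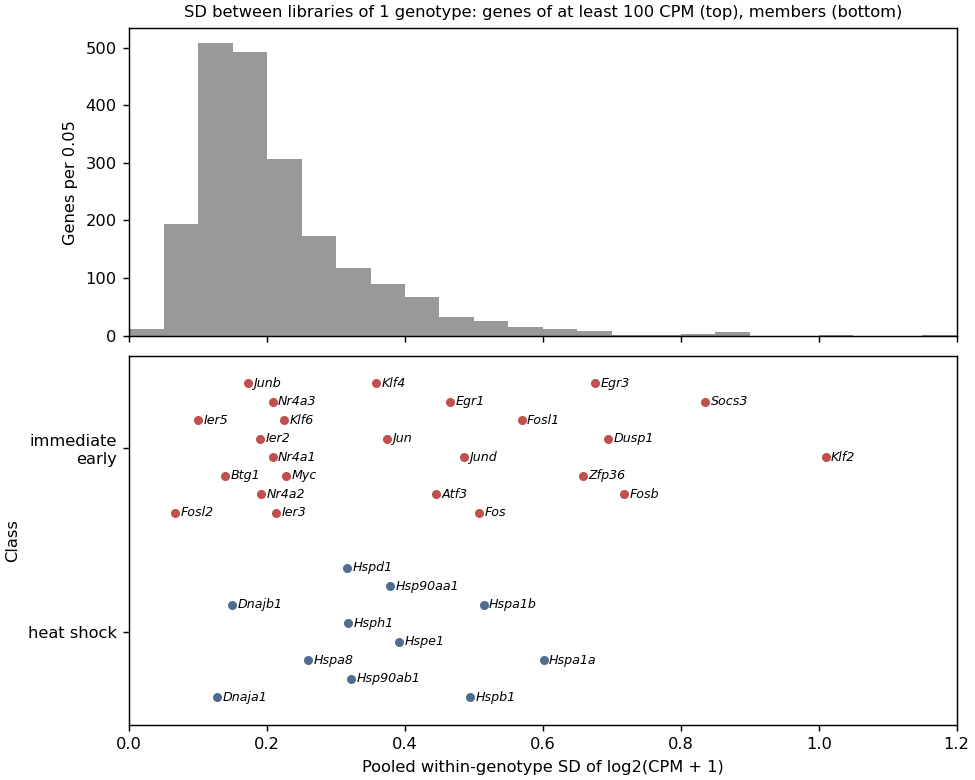
Pooled within-genotype SD of log2(CPM + 1) (x axis) for the 2075 genes with a mean of at least 100 CPM (top, genes per bin of 0.05) and for each member (bottom, vertical offsets within a class only part the names). Socs3 lies at 0.835 and Klf2, whose mean is below 100 CPM, at 1.01, and Fosl2 at 0.0668 near the lower edge.

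Many members were split by replicate number, a pattern known from earlier results of these data that no label explains. Identifiers in the titles run through replicates 1 and 2 of both genotypes before replicates 3 and 4. For 10 of the 24 early genes all 4 libraries numbered 1 or 2 were above all 4 numbered 3 or 4, namely Fos, Fosb, Jun, Egr1, Egr3, Dusp1, Zfp36, Klf2, Klf6 and Socs3, as for 5.08% of all genes, and for 0 they were all below. For 3 of the 11 heat shock genes, Hspa8, Hsp90aa1 and Hsp90ab1, they were all below, as for 5.93% of all genes, and for 0 all above. When each library was centred within its genotype and within numbers 1 and 2 or 3 and 4, the median SD was 0.199 for the early genes and 0.302 for the heat shock genes, against 0.366 and 0.322 without. Over the 2075 genes of at least 100 CPM it was 0.142, against 0.182 without. Hspa1a (0.682) and Hspa1b (0.616) kept a wide spread. No test is given for this split.

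A broader set of 56 early response genes gave no call either. Of the 54 tested, 0 passed, 44 had a positive and 10 a negative log2 change, and the median was 0.19. With the replicate block 4 were higher and 1 lower, against 1.71% and 0.706% of all genes. Groups did not overlap for 4, all higher in Bmi1-deleted libraries, against 2.79% of all genes. Libraries numbered 1 or 2 were all above those numbered 3 or 4 for 8 of the 54, against 5.08% of all genes. They were all below for 4 of the 54, against 5.93% of all genes. Arc, an activity-regulated gene known from neurons, had 91.7, 130.2, 145 and 139.8 CPM in Bmi1-deleted libraries 1 to 4, against 71.7, 64.3, 85.3 and 60.4 CPM in control libraries 1 to 4 (log2 change 0.85, SE 0.16, adjusted p = 0.0803; 0.00282 with the block). Hbegf, a growth factor of the EGF family, had 208, 230.5, 236 and 223 CPM in Bmi1-deleted and 178, 142, 163 and 126 CPM in control libraries (log2 change 0.56, SE 0.12, adjusted p = 0.131; 0.0101 with the block). For both, every Bmi1-deleted library was above every control library. Gem, a small GTPase, stood at 167 ± 27.6 CPM in Bmi1-deleted and 108 ± 16 CPM in control libraries (log2 change 0.62, SE 0.15, adjusted p = 0.144; 0.0108 with the block), and Plk2, a stress-induced kinase, at 305 ± 19.1 CPM in Bmi1-deleted and 251 ± 20.1 CPM in control libraries (adjusted p = 0.514), both without overlap. Ccn1, a matrix protein and YAP target, stood at 580 ± 137 CPM in Bmi1-deleted and 413 ± 95.1 CPM in control libraries (adjusted p = 0.544, 0.0135 with the block), and Dusp4, a nuclear MAP kinase phosphatase, at 94.5 ± 42.1 CPM in Bmi1-deleted and 138 ± 62.9 CPM in control libraries (adjusted p = 0.84, 0.0128 with the block). Ptgs2, the inducible cyclooxygenase, had the largest log2 change of the genes with a mean over all 8 libraries of at least 10 CPM, 1.15 (adjusted p = 0.881), and 0.21 with the block. It stood at 51.9, 16.9, 1.45 and 3.86 CPM in Bmi1-deleted and 2.23, 14.5, 10.9 and 5.54 CPM in control libraries, so that the difference rests on Bmi1-deleted library 1. Among 21 upstream regulators 0 passed, with 6 positive and 15 negative changes (median −0.07), against 50.7% positive of all genes. With the replicate block 1 of the 21 was lower, against 0.706% of all genes. Groups did not overlap for 2 of the 21, Mrtfa and Crtc3, both lower in Bmi1-deleted libraries, against 2.39% of all genes. Mrtfa, an SRF cofactor that senses actin, stood at 32 ± 3.02 CPM in Bmi1-deleted and 49.5 ± 5.93 CPM in control libraries (log2 change −0.63, SE 0.15, adjusted p = 0.167; 0.0352 with the block), without overlap, and the ternary complex factor Elk1 at 24.4 ± 4.28 CPM in Bmi1-deleted and 18.3 ± 2.31 CPM in control libraries (adjusted p = 0.633).

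Among 51 other chaperones and heat shock regulators 50 were tested and 0 passed, with 23 positive and 27 negative changes and a median of −0.03. With the replicate block 1 of the 50 was higher, a share near the 1.71% of all genes. This was Hspa2, an Hsp70 relative best known from testis, at 178, 201, 208 and 222 CPM in Bmi1-deleted libraries 1 to 4, against 142, 113, 147 and 126 CPM in control libraries 1 to 4 (log2 change 0.61, SE 0.12, adjusted p = 0.0875; 0.00595 with the block), and its groups did not overlap. Cryab, a small heat shock protein, stood at 140 ± 9.13 CPM in Bmi1-deleted and 102 ± 24 CPM in control libraries (log2 change 0.46, adjusted p = 0.41). Hsf1, the master regulator of the heat shock response, named after its values were seen, stood at 49.8 ± 8.04 CPM in Bmi1-deleted and 55.1 ± 2.14 CPM in control libraries (adjusted p = 0.884). Libraries numbered 1 or 2 were all below those numbered 3 or 4 for 7 of the 50, against 5.93% of all genes. Of 15 genes of the endoplasmic reticulum stress response, tested as a related chaperone system, 0 passed, 11 changes were positive and the median was 0.10. The largest changes at the same mean level were those of Xbp1, a factor of this response, at 57.8 ± 8.76 CPM in Bmi1-deleted and 49.3 ± 4.26 CPM in control libraries (adjusted p = 0.761) and of Pdia4, a disulfide isomerase, at 210 ± 8.38 CPM in Bmi1-deleted and 183 ± 67 CPM in control libraries (adjusted p = 0.884).

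Fibroblast markers were higher and melanocyte markers lower in sum in most Bmi1-deleted libraries, and both followed the replicate numbers within each genotype. The fibroblast markers summed to 17329, 14340, 9941 and 7642 CPM in Bmi1-deleted libraries 1 to 4, against 7929, 6566, 5267 and 4661 CPM in control libraries 1 to 4. In every library most of this sum came from the collagen genes Col1a1, Col1a2 and Col3a1. They stood at 5389, 3862 and 6529 CPM in Bmi1-deleted library 1 and 1707, 1673 and 3529 CPM in control library 1. Of 17 markers 15 were tested, 14 with a positive log2 change (median 0.96), and none was at 0 in all libraries. None passed without and 7 were higher with the replicate block, against 1.71% of all genes. These 7 were Col1a1, Col1a2, Col3a1, Col6a1, Col6a2, Postn and Fbn1, while Dcn, Lum, Pdgfra and Pdgfrb did not pass. Groups did not overlap for 2 of the 15, both higher in Bmi1-deleted libraries, against 2.79% of all genes. The melanocyte markers summed to 5594, 5251, 9105 and 10739 CPM in Bmi1-deleted and 9250, 10413, 13091 and 15330 CPM in control libraries. Of the 10, 9 had a negative log2 change (median −0.73). None passed without and 9 were lower with the replicate block, against 0.706% of all genes. Groups did not overlap for 2 of the 10, Mlana and Ednrb, both lower in Bmi1-deleted libraries, against 2.39% of all genes. The summed immediate early genes, 16112, 18568, 10970 and 11284 CPM in Bmi1-deleted and 14282, 13393, 11192 and 8484 CPM in control libraries, were, like the fibroblast markers, higher in libraries 1 and 2 than in 3 and 4 of each genotype. With the mean log2 level of the fibroblast markers as a covariate, 0 of the 24 early genes passed, 9 had a positive log2 change and the median was −0.15. Of the 54 other early response genes, 33 had a positive log2 change in that fit, with a median of 0.09. The share over all genes was 48.7%, with a median of −0.01. In that fit Ier5 had 0.34 (adjusted p = 0.351), Nr4a2 0.58 (adjusted p = 0.13) and Egr3 −0.16 (adjusted p = 0.918).

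Keratinocyte markers summed to 2720 to 4960 CPM in Bmi1-deleted and 3100 to 3330 CPM in control libraries. Of the 13, 10 changes were positive, against 50.7% of all genes. None passed without the block and 2 were higher with it, against 1.71% of all genes. Schwann cell markers summed to 4980 to 6610 CPM in Bmi1-deleted and 3070 to 5010 CPM in control libraries. Of their changes 10 of 10 were positive, against 50.7% of all genes. None passed without the block and 6 were higher with it, against 1.71% of all genes. Groups did not overlap for 5 of these 10, all higher in Bmi1-deleted libraries, against 2.79% of all genes. Endothelial and mural markers, the cells best known for Klf2, summed to 68.1 to 284 CPM in Bmi1-deleted and 55.7 to 104 CPM in control libraries (9 of 10 tested positive), and immune cell markers to 97.1 to 153 CPM in Bmi1-deleted and 55.0 to 96.7 CPM in control libraries (7 of 8 tested positive). In these last lists 0 passed with the block. No marker of these lists was at 0 in all libraries. The part of other cells in the levels of the early and heat shock genes was not tested. The fibroblast level used as a covariate was 5.12 to 6.8 in Bmi1-deleted and 4.89 to 5.66 in control libraries. Within each genotype it was higher in libraries 1 and 2 than in 3 and 4. The fit with this covariate therefore cannot part other cells from genotype or replicate number.

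**Figure D5:**
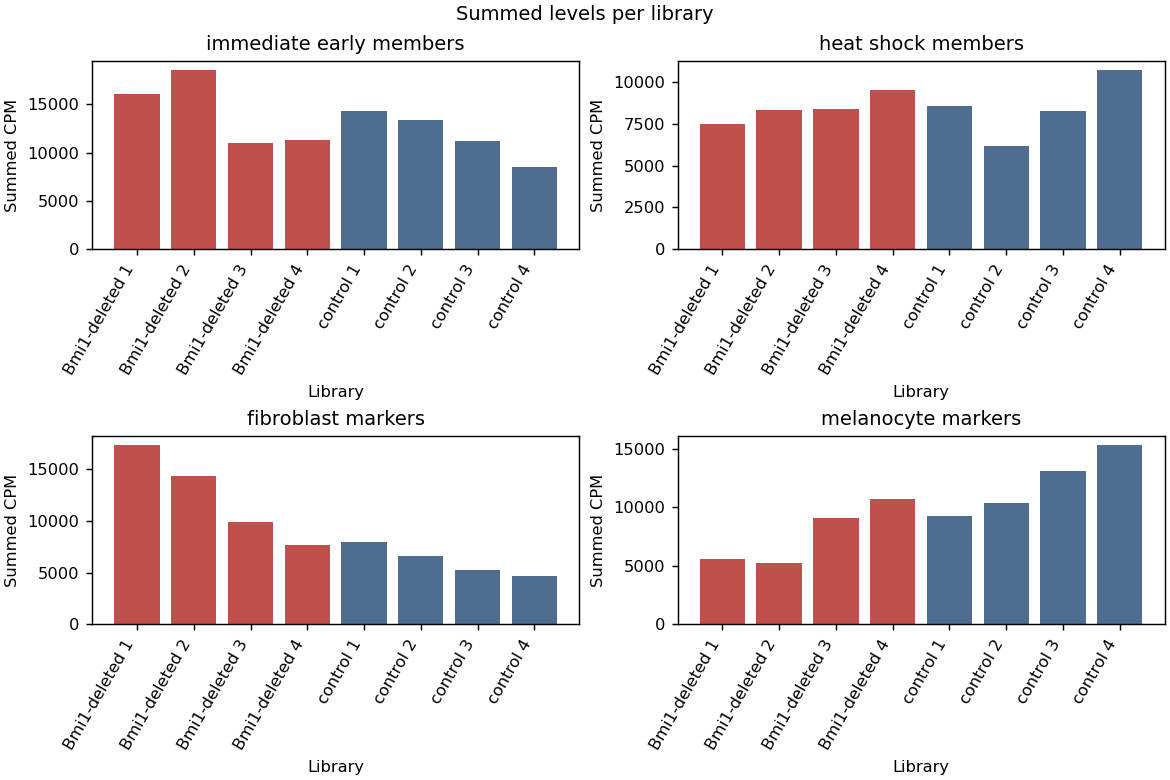
Summed CPM per library (y axes from 0) of the 24 immediate early genes, the 11 heat shock genes, the fibroblast markers and the melanocyte markers, Bmi1-deleted libraries left of control libraries. The early genes and fibroblast markers are lower in libraries 3 and 4 than in 1 and 2 of each genotype, and the melanocyte markers are higher.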

How the data were processed

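RNA of sorted cells was made into stranded total RNA libraries, per the labels' protocols, which mention no molecular identifiers, so counts may include PCR copies. The authors deposited estimated counts per gene, written as whole numbers. Per the submitters' processing notes, Salmon 1.2.1 and build mm10 were used. A second table holds log2 values, which the authors deposited as log2(TPM + 1), since undoing the logarithm gives columns that sum to 1e+06. Their annotation and strand setting are not stated. Symbols and positions came from GENCODE M21 (mm10).

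Genes of low counts were removed by filterByExpr in edgeR 4.0.16, and counts were scaled by TMM and compared with its robust quasi-likelihood F test (R 4.3.3, two-sided, all 8 libraries, adjusted p from this test unless named). The threshold was an adjusted p of 0.05. Alternatives used DESeq2 1.42.0, limma 3.58.1 on log2 TPM, other filters, a fibroblast covariate and left-out libraries. The library totals give a floor of 3 counts, 0.289 to 0.338 CPM, far below every member; floors cover counting error only. Replicate pairs of 1 group differed by 12.5 to 38.8 times counting variance.

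Same-numbered libraries, centred within genotype, correlated across genes at 0.140 to 0.224, each over 0.1, and 3 of the 4 Bmi1-deleted libraries, all but library 1, correlated best with their own number. By the rule of over 0.1 in every pair the numbers were taken as possible pairs, although no label states a pairing. The main fit was therefore kept without the block, and blocked values are given beside it where they change a call. Of all 16011 genes 15 passed without and 386 with the block, so calls depend on this choice. Genes are not independent, so no p is given.

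Members and lists were chosen with earlier results of these data known. Every member is named. Values of all libraries are given for the members that carry each class, those that passed in either fit, those with the largest changes and those without overlap. Other lists name genes that passed with the block, the largest changes and genes without overlap. Marker lists are given as sums, with some markers named.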

Additional observations from a re-analysis of the deposited data

How the results depend on the processing

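Under 22 other settings, 676 of 770 log2 changes of the 35 members kept their sign, and 94 had the other sign without passing in either fit. Across these settings 6 members kept 1 sign throughout, Ier2, Ier5, Klf4, Nr4a2 and Nr4a3 (higher) and Hspe1 (lower). The count of immediate early genes past the threshold was 0, and became 2 with the replicate block (Egr3, Ier5), 1 with DESeq2 (Ier5; adjusted p 0.0296) and 2 with no filter on low counts (Klf4, 0.0115, and Nr4a2, 0.0198). With the replicate block and 1 pair left out, added after seeing the data, it ranged from 0 to 2, with Nr4a2 (0.0109) and Klf2 (0.0316) passing without pair 1 and Egr3 (0.0176) and Atf3 (0.0231) without pair 3. It stayed 0 without any 1 library, in replicates 1 and 2 or 3 and 4 alone, on log2 TPM and with the fibroblast covariate. The heat shock count was 0 in all 22 settings. The replicate block changed no other call of a member. For the other early response genes the count higher was 4 with the block, 3 with DESeq2, 4 with no filter, 2 with the fibroblast covariate, 1 in replicates 1 and 2 alone, 0 to 1 with 1 library left out and 0 to 4 with the block and 1 pair left out, and the count lower was 1 with the block and 0 to 1 with a pair left out. For the other chaperones the count higher was 1 with the block, DESeq2, no filter or the fibroblast covariate and 0 to 2 with the block and 1 pair left out. The cause of these changes was not tested. The share of all genes that passed is given only for the main fit and for the replicate block with all libraries. Counts in the other settings therefore have no such share beside them. On the deposited log2 TPM the median of all genes was −0.14 and that of the early genes 0.02. In that fit 13 of the 24 early genes were positive, against 28.3% of all genes. Rescaled without Gm23935 and CT010467.1 the medians were 0.00 and 0.25. There 23 of the 24 were positive, against 50.2% of all genes. The level of every member was far above the counting floor in every library.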
